A study of Mus musculus with 18 samples.

Results

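Chemokines, interleukins and interleukin receptors were followed as 1 group of genes in 10T1/2 cells, a multipotent mouse fibroblast line that can become adipocytes. The members are the protein-coding genes of the count table whose symbol begins with Ccl, Cxcl or Cx3cl and ends in a number, or begins with Il and a digit. The rule found 117 genes (114 symbols, since Ccl19 is listed at 2 and Il11ra2 at 3 positions) of the 54532 in the table. Of these, 93 had a count in any of the 18 libraries and 52 passed the filter on low counts, 41 had counts but did not pass, and 24 had no count. The 117 comprised 20 CC chemokines, 12 CXC chemokines, 1 CX3C chemokine, 37 interleukins, 4 antagonists or binding proteins, 42 receptor genes and the enzyme gene Il4i1. Since a member may have passed the filter through the group in which it was high, the counts of DEGs among members below are a description.

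The RNA came from the line labelled CH310T1/2 (WT) and from FOXS1 KO clones 1 and 2, which derive from it by CRISPR-Cas9 editing with a pair of guides against the Foxs1 exon and were each grown from a single cell. Each clone is therefore 1 line, and what a clone gained or lost on its own cannot be told apart from the edit. Each genotype was sampled uninduced and after stimulation, in which 12 h of TGF-β1 at 1 nM were followed by 48 h of DMII, a mix of indomethacin, insulin, dexamethasone and the phosphodiesterase inhibitor IBMX, starting at 2 days past confluence, with 3 libraries in each of the 6 groups. DMII contains a glucocorticoid and a cyclooxygenase inhibitor, and the responses below are to the whole sequence of agents. Per the study's methods, cells were starved of serum overnight before TGF-β1, and DMII was given in a changed medium. Whether uninduced cells were matched for starvation, medium and time is not stated in the text and labels used. These cannot be told apart from the agents.

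Chemokines are small secreted proteins, in the case of Cx3cl1 also membrane-bound, that direct the movement of leukocytes through G protein-coupled receptors. Interleukins signal through paired receptor chains, of which one often binds the ligand and a shared chain such as Il1rap, Il6st or Il4ra completes the signal. Fibroblasts secrete many of these factors, and NF-kB and AP-1 are well-known activators of genes such as Il6, Cxcl1 and Ccl20.

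For members on which the results turn, the 250 bases before a RefSeq transcript start (GRCm38.p6) are shown 5′ to 3′ in the direction of transcription. They comprise Ccl20, Cxcl1 and Cxcl12, which are among the chemokine genes that were higher in both clones. Also shown are Il6 and Il11, which moved in opposite directions relative to WT, and the receptor gene with the largest deficit. Capitals mark matches on either strand to an NF-kB-like motif, which is GGGA, any 4 bases and CC, and to the AP-1-like motif TGANTCA.
Ccl20 (chr1:83116516-83116765, plus strand): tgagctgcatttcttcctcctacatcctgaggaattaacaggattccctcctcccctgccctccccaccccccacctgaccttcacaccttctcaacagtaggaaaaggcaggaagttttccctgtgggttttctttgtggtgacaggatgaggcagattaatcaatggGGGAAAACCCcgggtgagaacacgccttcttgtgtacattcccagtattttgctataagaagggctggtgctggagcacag
Cxcl1 (chr5:90890995-90891244, plus strand): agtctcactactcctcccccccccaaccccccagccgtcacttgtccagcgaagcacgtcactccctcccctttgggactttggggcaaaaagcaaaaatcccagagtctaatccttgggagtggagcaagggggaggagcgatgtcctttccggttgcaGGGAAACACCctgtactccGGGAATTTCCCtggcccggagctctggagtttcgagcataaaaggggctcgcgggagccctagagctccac
Cxcl12 (chr6:117168285-117168534, plus strand): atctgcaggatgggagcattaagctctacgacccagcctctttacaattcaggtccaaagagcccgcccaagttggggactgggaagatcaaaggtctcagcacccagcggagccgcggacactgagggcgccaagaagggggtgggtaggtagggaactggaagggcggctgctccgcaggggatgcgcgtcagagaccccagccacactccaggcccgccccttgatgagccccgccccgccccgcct
Il6 (chr5:30012864-30013113, plus strand): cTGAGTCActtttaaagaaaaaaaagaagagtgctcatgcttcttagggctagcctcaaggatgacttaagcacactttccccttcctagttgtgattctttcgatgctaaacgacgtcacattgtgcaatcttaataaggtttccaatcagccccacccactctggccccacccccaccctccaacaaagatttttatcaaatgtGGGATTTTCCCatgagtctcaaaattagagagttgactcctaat
Il11 (chr7:4778142-4778391, minus strand): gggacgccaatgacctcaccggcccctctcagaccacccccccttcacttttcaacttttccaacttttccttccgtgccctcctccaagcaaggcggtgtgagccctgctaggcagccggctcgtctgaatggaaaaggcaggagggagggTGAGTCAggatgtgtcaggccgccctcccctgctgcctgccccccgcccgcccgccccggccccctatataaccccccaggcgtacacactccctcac
Il13ra1 (chrX:36111858-36112107, plus strand): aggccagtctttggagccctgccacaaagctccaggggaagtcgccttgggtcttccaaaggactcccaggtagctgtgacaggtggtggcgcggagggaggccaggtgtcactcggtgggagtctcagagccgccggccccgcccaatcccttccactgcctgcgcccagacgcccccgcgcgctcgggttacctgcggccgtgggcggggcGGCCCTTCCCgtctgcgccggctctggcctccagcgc
The NF-kB-like motif was found once in the Ccl20, Il6 and Il13ra1 windows and at 2 separate places in the Cxcl1 window, and some of these places match on both strands. The AP-1-like motif was found in the Il6 and Il11 windows shown. Another RefSeq window of Il11 (chr7:4782858-4783107, minus strand) is not shown and held neither motif. Over all 32851 such windows in the RefSeq set, 17.6% held the first motif and 6.75% the second, so a match is common and only describes the letters. A RefSeq window was matched by symbol for 90 of the 117 members. Those of Ccl6 and Ccl9, also higher in both uninduced clones, are not shown. Neither held an NF-kB-like match, and that of Ccl9 held an AP-1-like match. The windows shown are a choice and give no share for the changed members.

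Libraries held 15576685 to 42005596 counts, and the members took 0.257% to 0.553% of them. Levels are TMM-normalized CPM, the counts scaled to library size. Foxs1 itself was listed at 2.23 ± 0.886 CPM in the libraries labelled uninduced WT (SD, n = 3) and 2.51 ± 0.641 CPM in stimulated WT, against 25.7 ± 2.04 and 54.5 ± 2.06 CPM in those labelled clone 1 and 22.6 ± 1.44 and 39.9 ± 2.59 CPM in those labelled clone 2. The Foxs1 transcript total was thus higher in the libraries labelled FOXS1 KO than in those labelled WT. The study reports a disrupted Foxs1 locus by sequencing of genomic DNA and loss of FOXS1 protein in both clones by western blotting. Neither is analysed here. Total gene counts do not show the edit, so WT, clone 1 and clone 2 below mean the libraries labelled so, and every direction rests on those labels. Among fibroblast markers 9 of 9 were tested, with Col1a1 high in every group. By the thresholds given below, 1 was higher and 2 lower in stimulated clone 1, and 1 higher and 3 lower in stimulated clone 2. Of all tested genes, 9.42% were higher and 9.60% lower in stimulated clone 1, and 7.95% and 8.94% in clone 2. Thy1 was close to 0 in clone 2, but had 3149, 4344 and 3410 counts in stimulated clone 1 against 1045, 1156 and 1019 in stimulated WT. Dcn had 114, 142 and 142 counts in stimulated WT, 160, 297 and 266 in clone 1 and 250, 230 and 218 in clone 2. Lum had 217, 213 and 250 counts in stimulated WT, 6, 12 and 14 in clone 1 and 13, 8 and 6 in clone 2. Of the 9 leukocyte markers only Cd68 and Lyz2 were tested, Ptprc and Cd3e had no count, and the summed level of the list was 0.990 to 2.1 CPM in uninduced WT, 5.70 to 7.07 in uninduced clone 1, 6.05 to 6.64 in uninduced clone 2 and 0.448 to 1.44 in stimulated cells of any genotype. Lyz2 rose in both clones in both treatments. In stimulated cells this rests on few counts, with 0, 0 and 1 in WT, 5, 5 and 10 in clone 1 and 3, 8 and 3 in clone 2. Cd68 passed the thresholds in neither stimulated clone, with 10, 13 and 7 counts in WT, 7, 17 and 6 in clone 1 and 4, 12 and 17 in clone 2. Summed endothelial markers gave 5.03 to 7.92 CPM in uninduced WT and at most 0.828 CPM in any other group. Of these 4 genes only Tek was tested, with 108, 94 and 171 counts in uninduced WT, where Pecam1 had 28, 2 and 3 and Kdr none. Summed adipocyte markers gave 14.1 to 17.9 CPM in stimulated clone 1 and at most 1.18 CPM in any other group. Most of that sum was Plin1 and Cidec, and Lep had no count. Adipoq had 3, 10 and 2 counts in stimulated clone 1 and 45, 21 and 16 in uninduced clone 2. The part of these levels in the results below was not tested.

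A DEG is a gene with a Benjamini-Hochberg adjusted p below 0.05 over all 14317 tested genes and an absolute log2 fold change above 1 in edgeR's quasi-likelihood test, the source of each adjusted p below. The SE beside a log2 fold change is the absolute change divided by the square root of the F statistic of that test. It is derived from the test, and where a group had few counts it can understate the error. The labels do not say that the 3 libraries of a group came from separate cultures, so p-values measure the spread between these libraries. In stimulated cells, 27 of the 52 tested members were DEGs in clone 1 relative to WT, where 19.0% of all tested genes were. Of these 17 were higher, against 9.42% of all genes, and 10 were lower, against 9.60%. In stimulated clone 2, 26 members were DEGs, against 16.9% of all genes, with 18 higher (7.95%) and 8 lower (8.94%). In uninduced clone 1 it was 23 members, against 15.1%, with 17 higher (6.32%) and 6 lower (8.73%). In uninduced clone 2 it was 28 members, against 15.1%, with 16 higher (5.54%) and 12 lower (9.56%). Both clones are set against the same WT libraries. In bulk RNA, fewer cells that express a gene and less of its RNA per cell cannot be told apart. Among the 39 members with a mean of at least 1 CPM over all libraries, the 4 counts were 24, 23, 20 and 24, against 17.1%, 15.6%, 12.7% and 12.8% of all genes at that level. The median log2 fold change of the tested members was 0.58 in stimulated clone 1, 0.19 in stimulated clone 2, 0.22 in uninduced clone 1 and -0.09 in uninduced clone 2, against -0.02, -0.01, -0.01 and -0.02 over all tested genes.

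Of 8 tested CC chemokine genes, 5 rose in stimulated clone 1 and 6 in stimulated clone 2, where 9.42% and 7.95% of all tested genes were higher, and none fell. Uninduced, 6 rose in clone 1, and 5 rose and Ccl17 fell in clone 2, where 6.32% and 5.54% of all genes were higher. Ccl2 and Ccl7, monocyte-attracting ligands of the receptor Ccr2, are neighbours on chromosome 11 (ENSMUSG00000035385, chr11:82035571-82037453, plus strand and ENSMUSG00000035373, chr11:82045712-82047525, plus strand, GRCm38).

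Ccl2 had 16, 16.6 and 22.6 CPM in the 3 uninduced WT libraries, 64.5, 60.5 and 67.9 CPM in clone 1 and 23.8, 23.3 and 23.3 CPM in clone 2. After stimulation it had 5.18, 4.97 and 6.54 CPM in WT, 19.3, 19.0 and 21.8 CPM in clone 1 and 24.1, 22.3 and 23.6 CPM in clone 2. Every clone library lay above every WT library of its treatment, but in uninduced clone 2 the gap was small. Relative to WT, Ccl2 differed on the log2 scale by 1.85 (adjusted p = 8.21e-14, SE 0.12) in stimulated clone 1 and 2.07 (adjusted p = 7.84e-15, SE 0.12) in stimulated clone 2, and 1.79 (adjusted p = 7.66e-15, SE 0.11) and 0.34 (adjusted p = 0.0085, SE 0.11) in the uninduced clones. Ccl2 fell on stimulation in WT (-1.74) and in clone 1 (-1.68), whereas the difference between treatments was -0.01 (SE 0.11) in clone 2. Between clone 2 and WT the responses differed by 1.73 (adjusted p = 9.96e-10, SE 0.16).

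Ccl7 had 1.69, 5.40 and 6.63 CPM in uninduced WT, 60.3, 60.7 and 58.4 CPM in clone 1 and 20.3, 21.2 and 18.9 CPM in clone 2. Stimulated libraries had 3.67, 3.28 and 3.11 CPM in WT, 20.5, 20.8 and 19.2 CPM in clone 1 and 36.9, 33.9 and 37.2 CPM in clone 2. The clones did not overlap WT in either treatment, and they changed places, clone 1 being higher uninduced and clone 2 after stimulation. The log2 fold changes relative to WT were 2.59 (adjusted p = 8.57e-08, SE 0.24) and 3.43 (adjusted p = 2.15e-09, SE 0.24) in stimulated cells and 3.65 (adjusted p = 5.65e-10, SE 0.22) and 2.08 (adjusted p = 8.71e-07, SE 0.23) in uninduced cells, for clones 1 and 2. The other genes of this stretch, Ccl11, Ccl12, Ccl8 and Ccl1, were not tested for want of counts. Ccl8 had no count in any WT library and a sum of 31 counts in uninduced clone 2, at least 7.63-fold higher there against a floor of 3 counts over the group.

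Farther along chromosome 11 lie Ccl5 (ENSMUSG00000035042, chr11:83525778-83530518, minus strand), Ccl9 (ENSMUSG00000019122, chr11:83572919-83578636, minus strand) and Ccl6 (ENSMUSG00000018927, chr11:83587882-83593087, minus strand). Ccl9, a ligand of the receptor Ccr1, had 31.5, 29.5 and 32.3 CPM in uninduced WT, 118, 108 and 119 CPM in clone 1 and 112, 112 and 103 CPM in clone 2. With stimulation it had 25.1, 26.8 and 22.2 CPM in WT, 42.2, 34.1 and 35.9 CPM in clone 1 and 165, 158 and 163 CPM in clone 2. The uninduced clones overlapped each other above WT, and the stimulated clones stood far apart. The log2 fold change relative to WT was 1.89 (adjusted p = 3.52e-19, SE 0.07) and 1.81 (adjusted p = 7.18e-19, SE 0.07) uninduced, then 0.59 (adjusted p = 1.06e-07, SE 0.08) in clone 1, short of the fold threshold, and 2.71 (adjusted p = 4.65e-23, SE 0.07) in clone 2. After stimulation clone 1 differed from clone 2 by -2.12 (adjusted p = 4.24e-20, SE 0.07).

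Ccl6 had 3.38, 2.1 and 2.1 CPM in uninduced WT, 14.9, 14.5 and 12.4 CPM in clone 1 and 20.9, 24.1 and 20.8 CPM in clone 2, and fell in each genotype on stimulation, to 0.147, 0.173 and 0.0902 CPM in WT, 0.958, 0.553 and 1.18 CPM in clone 1 and 2.35, 1.44 and 1.98 CPM in clone 2. The responses were -4.12, -3.98 and -3.49 on the log2 scale. Clone libraries stayed above WT libraries before and after, by 2.49 and 3.14 uninduced and 2.63 and 3.77 stimulated. Ccl6 and Ccl9 are related in sequence, and how reads shared by paralogs were counted is not given in the sources used here.

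Ccl5, a T cell and monocyte attractant, was listed at 0.349, 0 and 0 CPM in uninduced WT, against 11.6, 11.2 and 10.7 CPM in clone 1 and 3.35, 4.65 and 3.13 CPM in clone 2. Stimulated WT libraries held 2 counts in all, against 136 in clone 1 and 35 in clone 2, a ratio of levels of 65.9 (95% counting interval 17.9 to 549.8) and 23.1 (5.94 to 198). It rose in both clones in both treatments, with uninduced log2 fold changes of 6.75 (adjusted p = 5.90e-13, SE 0.48) and 5.17 (adjusted p = 7.85e-10, SE 0.51), and clone 1 lay above clone 2 by 1.59 (adjusted p = 4.62e-05, SE 0.29). All 6 counts of uninduced WT came from replicate 1, without which the uninduced values were 10.92 and 9.34, and without replicate 3 of uninduced WT they were 6.02 and 4.43.

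Ccl20 (ENSMUSG00000026166, chr1:83116766-83119167, plus strand), the ligand of Ccr6, had no count in uninduced WT and 2 counts in stimulated WT. Stimulated clone 1 libraries had 2.34, 1.25 and 1.64 CPM and those of clone 2 6.61, 4.25 and 4.57 CPM. The ratio of levels to stimulated WT was 55.3 (14.9 to 462) in clone 1 and 171 (46.9 to 1421) in clone 2. Uninduced, the 3 libraries of a clone held 7 counts in clone 1 and 20 in clone 2, at least 2.54-fold and 4.92-fold above WT, and the DEG call of clone 1 was lost without replicate 2 or 3 of uninduced WT or replicate 2 of uninduced clone 1, where the fitted log2 fold change went to 4.47, 4.45 and 2.45. Ccl20 rose on stimulation in clone 1 (3.76, adjusted p = 1.94e-05, SE 0.66) and in clone 2 (4.46, adjusted p = 8.95e-08, SE 0.56), the first at 5.78 without replicate 2 of uninduced clone 1.

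**Figure D1:**
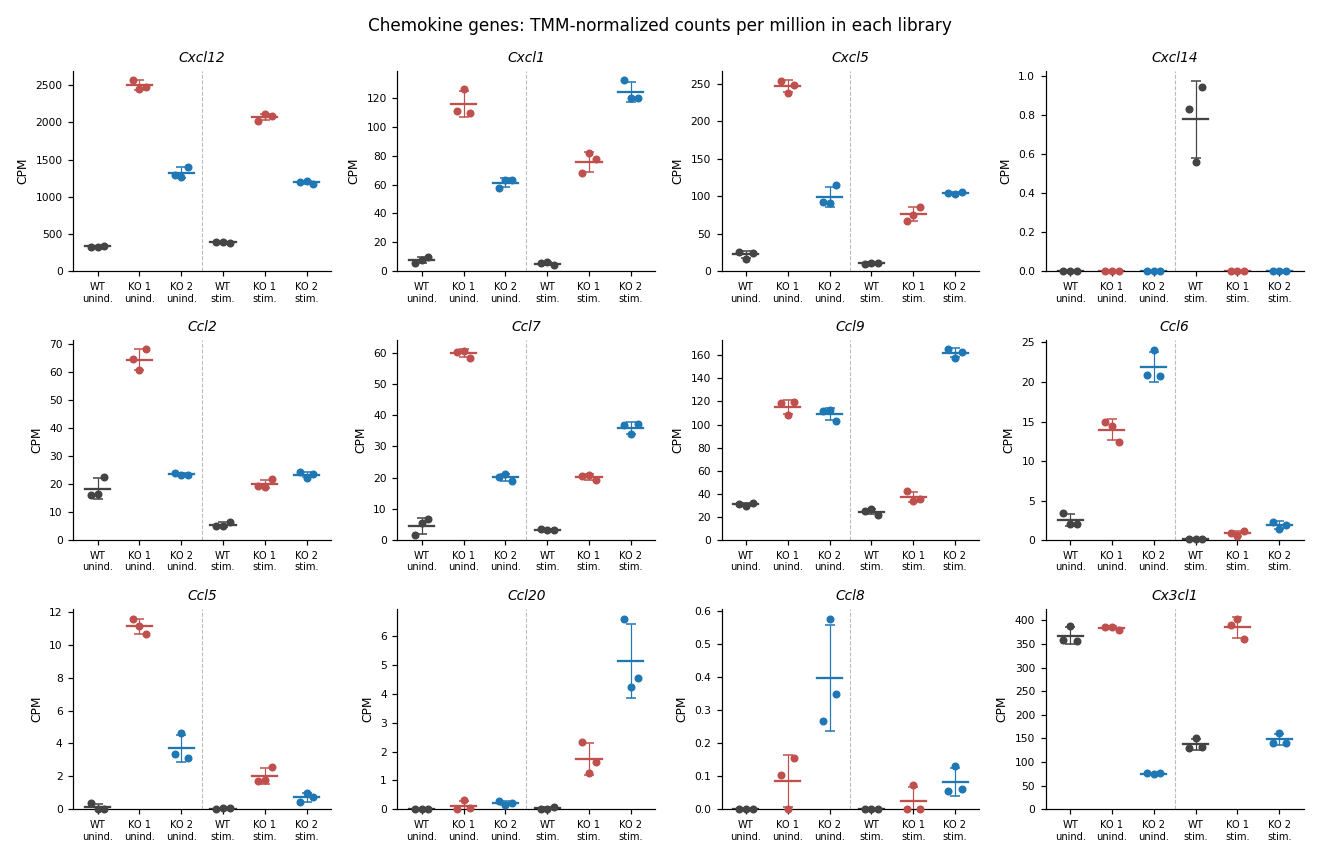
Level of 12 chemokine genes in TMM-normalized CPM (linear axis from 0) in each library by genotype, uninduced (left of the dashed line) and stimulated (right). Points are libraries, and bars are the mean with the SD of 3 libraries. Cxcl12, Cxcl1 and Cxcl5 lie higher in all clone libraries than in any WT library, while Cx3cl1 lies at 74.3 to 76.4 CPM in uninduced clone 2 and at 356 to 388 CPM in uninduced WT.

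CXC chemokine genes were led by Cxcl12. Of 6 tested, Cxcl1, Cxcl5 and Cxcl12 rose in both clones in both treatments. In stimulated clones 1 and 2, 9.42% and 7.95% of all tested genes were higher, and 6.32% and 5.54% in the uninduced clones. The share of all genes higher in both clones at once was not computed. Cxcl12 (ENSMUSG00000061353, chr6:117168535-117181367, plus strand), the ligand of Cxcr4 and a retention signal for hematopoietic cells, had 328, 329 and 339.7 CPM in uninduced WT, 2574, 2452 and 2476 CPM in clone 1 and 1289.7, 1268 and 1404 CPM in clone 2. Stimulated libraries had 398, 387 and 375 CPM in WT, 2023, 2110.1 and 2082 CPM in clone 1 and 1200.3, 1214 and 1172 CPM in clone 2. The 3 genotypes did not overlap in either treatment, in the order WT, clone 2, clone 1. Cxcl12 rose relative to WT by a log2 fold change of 2.42 (adjusted p = 8.65e-28, SE 0.04) and 1.63 (adjusted p = 8.44e-24, SE 0.04) in stimulated clones 1 and 2, and 2.91 (adjusted p = 3.67e-29, SE 0.04) and 1.99 (adjusted p = 1.38e-25, SE 0.04) uninduced. Between treatments it differed by 0.22 in WT, -0.27 in clone 1 and -0.14 in clone 2 on the log2 scale. Scaled by gene length, Cxcl12 was the most abundant member, at 306 CPM per kb in uninduced clone 1, ahead of Cxcl5 at 133 CPM per kb in the same cells and Il1rn at 111 CPM per kb in uninduced WT.

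Cxcl1 and Cxcl5, which attract neutrophils through Cxcr2, lie in 1 cluster on chromosome 5 (ENSMUSG00000029380, chr5:90891241-90893115, plus strand and ENSMUSG00000029371, chr5:90759360-90761624, plus strand). Cxcl1 had 6.0, 7.81 and 9.64 CPM in uninduced WT, 111, 126 and 109.6 CPM in clone 1 and 57.8, 63.2 and 63.2 CPM in clone 2. It had 5.53, 6.31 and 4.15 CPM in stimulated WT, 68.2, 81.6 and 77.5 CPM in clone 1 and 132, 119.9 and 120.0 CPM in clone 2. All clone libraries lay far above the WT libraries. Cxcl1 rose relative to WT by a log2 fold change of 3.83 (adjusted p = 4.62e-17, SE 0.13) and 4.54 (adjusted p = 2.10e-18, SE 0.13) stimulated and 3.85 (adjusted p = 2.80e-17, SE 0.12) and 2.94 (adjusted p = 4.16e-15, SE 0.12) uninduced. Between treatments Cxcl1 differed by -0.58 in WT, -0.61 in clone 1 and 1.02 in clone 2, and the response of clone 2 exceeded that of WT by 1.60 (adjusted p = 4.65e-07, SE 0.19). The clone 2 response of 1.02 stood at the fold threshold, and was 0.97 without replicate 1 of uninduced clone 2 and 0.98 without replicate 1 of stimulated clone 2.

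Cxcl5 had 26.1, 16.6 and 24.4 CPM in uninduced WT, 254, 238 and 248 CPM in clone 1 and 92.9, 91.0 and 115 CPM in clone 2, and 9.05, 11.3 and 11.2 CPM in WT, 67.7, 75.3 and 86.0 CPM in clone 1 and 104, 103 and 106 CPM in clone 2 after stimulation. Here too all clone libraries lay above WT. Log2 fold changes relative to WT were 2.85 and 3.30 stimulated and 3.46 and 2.15 uninduced, with adjusted p between 4.10e-12 and 1.56e-09. The other CXC genes of the cluster, Cxcl2, Cxcl3 and Cxcl15, reached at most 0.327 CPM per kb in any group, and reads shared between such paralogs are a limit for all of them.

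Cxcl14, a chemokine of epithelia and stroma, went the other way at a low level. It had 0.831, 0.561 and 0.947 CPM in stimulated WT and no count in any other library, at least 17.5-fold lower in stimulated clone 1 and at least 12.9-fold lower in clone 2. All of its 51 counts therefore came from 1 group. Cxcl16, a membrane-bound ligand of Cxcr6, was lower in uninduced clone 2 (-1.75, SE 0.61, adjusted p = 0.0166) at under 1 CPM in WT, a call lost without replicate 1 (-1.72) or 2 (-1.57) of uninduced clone 2. Its exons share 18.3% of their bases with Zmynd15 on the opposite strand.

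Cx3cl1 (ENSMUSG00000031778, chr8:94772009-94782427, plus strand), the membrane-tethered ligand of Cx3cr1, set the clones apart. It had 359, 388 and 356 CPM in uninduced WT, 387, 385 and 380.5 CPM in clone 1 and 75.8, 74.3 and 76.4 CPM in clone 2. After stimulation it had 131, 152 and 132 CPM in WT, 391, 403 and 361 CPM in clone 1 and 140.2, 162 and 141 CPM in clone 2. Uninduced clone 1 overlapped WT and uninduced clone 2 lay far below, whereas after stimulation clone 2 overlapped WT and clone 1 lay above. It fell in WT on stimulation (-1.41, adjusted p = 9.77e-19, SE 0.06) but differed by 0.00 (SE 0.06) in clone 1 and by 0.97 (adjusted p = 1.91e-14, SE 0.06) in clone 2, and was 1.02 without replicate 1 or 3 of stimulated clone 2, past the fold threshold. Both clones responded differently from WT, by 1.42 (adjusted p = 1.17e-14, SE 0.08) and 2.38 (adjusted p = 1.85e-19, SE 0.08). Clone 1 exceeded clone 2 by 2.35 (adjusted p = 6.12e-23, SE 0.06) uninduced and 1.38 (adjusted p = 8.97e-18, SE 0.06) stimulated.

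Among the 37 interleukin genes, 13 were tested. In stimulated clone 1, 9.42% of all tested genes were higher and 9.60% lower, and in stimulated clone 2 it was 7.95% and 8.94%. Uninduced it was 6.32% and 8.73% in clone 1 and 5.54% and 9.56% in clone 2. In stimulated cells Il6, Il12b and Il34 rose in both clones, Il11 fell in both, Il33 fell in clone 1, and Il17d and Il18 fell in clone 2. Uninduced, Il12a, Il15 and Il34 rose and Il4 and Il11 fell in both clones. The uninduced calls of Il12a in clone 2 and of Il4 in both clones rested on single libraries, as given below. Il1a had few counts, and Il1b, Il10 and Il13 had none.

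Il6 (ENSMUSG00000025746, chr5:30013114-30019981, plus strand), an inflammatory cytokine also secreted by preadipocytes, had 1.69, 1.52 and 1.83 CPM in uninduced WT, 2.66, 1.23 and 1.97 CPM in clone 1 and 1.38, 0.709 and 1.28 CPM in clone 2. After stimulation it had 11.3, 12.2 and 9.33 CPM in WT, 23.4, 27.1 and 25.8 CPM in clone 1 and 36.5, 37.5 and 40.6 CPM in clone 2. Uninduced clone 1 overlapped WT and uninduced clone 2 lay slightly below it, and the stimulated groups were separate, in the order WT, clone 1, clone 2. Relative to stimulated WT, Il6 rose by 1.22 (adjusted p = 1.18e-08, SE 0.14) in clone 1 and 1.80 (adjusted p = 3.74e-12, SE 0.14) in clone 2, against 0.21 (SE 0.24) and -0.54 (SE 0.25) uninduced. Il6 rose on stimulation by 2.69 in WT, 3.69 in clone 1 and 5.03 in clone 2 on the log2 scale. The excess over the WT response was 2.34 (adjusted p = 1.26e-07, SE 0.29) in clone 2 and 1.00 (adjusted p = 0.00598, SE 0.28) in clone 1, where the value sits at the fold threshold and went to 0.92, 0.90, 0.76 and 0.95 without replicate 3 of uninduced WT, replicate 3 of stimulated WT, replicate 2 of uninduced clone 1 and replicate 2 of stimulated clone 1.

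Il11 (ENSMUSG00000004371, chr7:4772373-4782857, minus strand), a cytokine of the same receptor family that fibroblasts secrete in response to TGF-β, had 0.815, 0.419 and 0.534 CPM in uninduced WT, 0.205, 0.0536 and 0.155 CPM in clone 1 and 0.134, 0.0886 and 0.232 CPM in clone 2. After stimulation it had 11.5, 10.1 and 6.94 CPM in WT, 0.532, 0.332 and 0.638 CPM in clone 1 and 1.68, 0.523 and 1.02 CPM in clone 2. The stimulated WT libraries lay well above all others, although the group spread widely. Relative to stimulated WT, Il11 had a log2 fold change of -4.26 (adjusted p = 5.47e-11, SE 0.38) in clone 1 and -3.12 (adjusted p = 8.42e-09, SE 0.35) in clone 2, and it was also lower uninduced, at -2.02 (adjusted p = 0.00516, SE 0.59) and -1.98 (adjusted p = 0.00302, SE 0.55). It rose in each genotype, by 4.02 in WT, 1.78 in clone 1 and 2.88 in clone 2. Without replicate 2 of uninduced clone 1 or replicate 3 of stimulated clone 1 the rise in clone 1 was 1.42 or 1.58 and no longer passed. Il6 and Il11 were thus opposite in direction relative to WT in the same stimulated cells, with the spans of the clones not touching those of WT for either gene.

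Il34 (ENSMUSG00000031750, chr8:110741829-110805924, minus strand), which signals through Csf1r, had 0, 1.36 and 0.686 CPM in uninduced WT, 9.53, 8.90 and 9.01 CPM in clone 1 and 6.02, 6.07 and 4.81 CPM in clone 2. It was 0.489, 0.216 and 0.135 CPM in stimulated WT, 2.56, 1.99 and 2.14 CPM in clone 1 and 3.98, 3.47 and 3.43 CPM in clone 2. Clone libraries lay above WT in each treatment, by log2 fold changes of 2.99 (adjusted p = 1.59e-05, SE 0.50) and 3.70 (adjusted p = 5.10e-07, SE 0.48) stimulated and 3.70 and 3.01 uninduced. The uninduced values were 4.49 and 3.80 without replicate 2 of uninduced WT, and the stimulated values 3.61 and 4.32 without replicate 1 of stimulated WT. Over all alternative fits the smallest values were 3.20 and 2.52 uninduced and 2.66 and 3.37 stimulated, and no call was lost. Exons of genes on the opposite strand cover 4.95% of its exonic bases.

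Il33 (ENSMUSG00000024810, chr19:29925114-29960718, plus strand), the ligand of the receptor encoded by Il1rl1, had 4.35, 5.87 and 5.46 CPM in stimulated WT, 0.586, 1.51 and 2.00 CPM in clone 1 and 6.05, 6.67 and 6.37 CPM in clone 2, after 3.32, 2.78 and 2.48 CPM in WT, 2.25, 2.36 and 2.49 CPM in clone 1 and 2.03, 2.08 and 2.14 CPM in clone 2 uninduced. Stimulated clone 1 lay below every other stimulated library, and clone 2 slightly above WT. The log2 fold change was -1.91 (adjusted p = 3.87e-07, SE 0.27) in clone 1 and 0.28 (SE 0.24) in clone 2 relative to WT, and -2.19 (adjusted p = 7.17e-08, SE 0.27) between the clones.

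Other interleukins were of low abundance. Il12b, the shared subunit of IL-12 and IL-23, held 28 counts in stimulated clone 1 and 32 in clone 2 against 2 in WT, a ratio of levels of 13.6 (3.42 to 118) and 21.1 (5.39 to 182). Il12a, its partner in IL-12, was found in uninduced cells, at 1.49 ± 0.266 CPM in clone 1 and 0.856 ± 0.262 CPM in clone 2 against 0.191 ± 0.212 CPM in WT, and had 1 count in all 9 stimulated libraries. Its uninduced log2 fold changes were 2.92 (adjusted p = 0.00103, SE 0.70) and 2.09 (adjusted p = 0.0163, SE 0.72), the second lost without replicate 3 of uninduced WT (1.92) or of uninduced clone 2 (1.88), and both were larger without replicate 2 of uninduced WT (3.99 and 3.15). Il15, a growth factor of NK cells, rose in both uninduced clones, at 2.42 (adjusted p = 4.85e-05, SE 0.46) and 1.82 (adjusted p = 0.00131, SE 0.46), from 0.373 ± 0.0327 CPM in WT to 2.00 ± 0.171 and 1.35 ± 0.391 CPM, and the stimulated levels were 0.438 ± 0.167, 0.682 ± 0.204 and 0.400 ± 0.0774 CPM. Il4 was lower in both uninduced clones (-1.03 and -1.11), but without replicate 1 of uninduced WT, at 5.88 CPM against 3.09 and 2.17 CPM in the others, the values were -0.54 and -0.62 and neither was a DEG. Without replicate 2 or 3 of uninduced clone 1 its value there was -1.0 and also no DEG. Il7 and Il17d fell on stimulation in every genotype, Il7 from 0.552 ± 0.332 CPM in uninduced WT to no count in stimulated WT, at least 13.0-fold lower, and Il17d with log2 fold changes of -4.43, -4.49 and -5.92 in WT, clone 1 and clone 2.

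**Figure D2:**
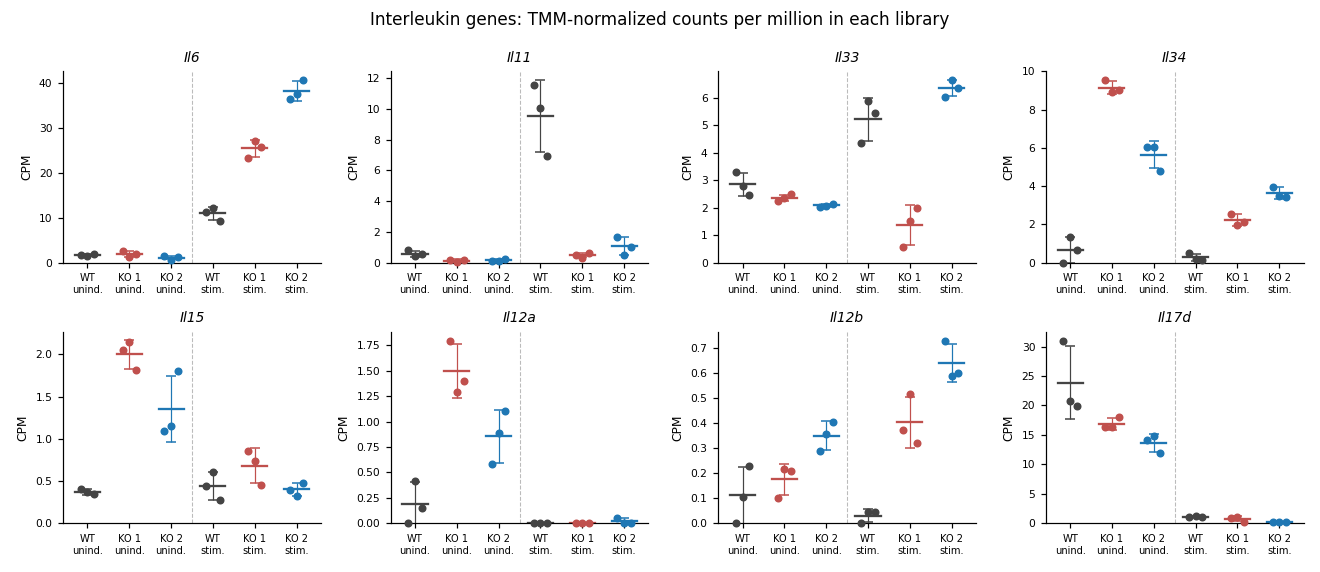
Level of 8 interleukin genes in TMM-normalized CPM (linear axis from 0) in each library, uninduced left and stimulated right of the dashed line. Points are libraries, and bars are the mean with the SD of 3 libraries. Il6 rises in all genotypes to 9.33 to 12.2 CPM in stimulated WT and 36.5 to 40.6 CPM in clone 2, while Il11 reaches 6.94 to 11.5 CPM in stimulated WT and at most 1.68 CPM in the clones.

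Il1rn (ENSMUSG00000026981, chr2:24336853-24351494, plus strand), the secreted antagonist of the IL-1 receptor, was among the most abundant members. It had 604, 616 and 628 CPM in uninduced WT, 353, 309 and 341 CPM in clone 1 and 125, 113 and 126 CPM in clone 2, and 395, 404 and 401 CPM in WT, 302, 288 and 304 CPM in clone 1 and 219, 222 and 240.3 CPM in clone 2 after stimulation. The genotypes were separate in both treatments, with WT highest and clone 2 lowest. The difference from WT was -2.34 (adjusted p = 5.98e-25, SE 0.05) in uninduced clone 2, a DEG, and -0.88, -0.42 and -0.82 in uninduced clone 1 and the stimulated clones 1 and 2, short of the fold threshold. The response of clone 2 exceeded that of WT by 1.53 (adjusted p = 1.82e-16, SE 0.07).

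Of 42 receptor genes, 22 were tested. Relative to stimulated WT, 4 rose and 7 fell in clone 1, where 9.42% of all tested genes were higher and 9.60% lower. In clone 2, 6 rose and 4 fell, where 7.95% were higher and 8.94% lower. Il13ra1, Il17rd, Il1rl1 and Il1rl2 fell in both clones in both treatments, and Il1rap, Il1rapl1 and Il15ra rose in both clones in both treatments. The uninduced calls of Il1rap and Il1rapl1 in clone 2 and of Il15ra in both clones rested on single libraries, as given below.

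Il13ra1 (ENSMUSG00000017057, chrX:36112110-36171259, plus strand) encodes the chain that joins Il4ra in the receptor through which non-hematopoietic cells respond to IL-13. It had 23.8, 25.7 and 22.9 CPM in uninduced WT and 121, 117 and 127 CPM in stimulated WT. Clone 1 had 0.0512, 0 and 0.311 CPM uninduced and 0.106, 0.0737 and 0 CPM stimulated, and clone 2 had no count uninduced and 0.112, 0 and 0.0601 CPM stimulated. The transcript was thus near or at 0 in all 12 clone libraries, where the whole stimulated groups held 4 counts in clone 1 and 3 in clone 2, against 8006 in WT. Clone 1 had a fitted log2 fold change of -10.88 (adjusted p = 1.13e-23, SE 0.24) stimulated and -7.56 (adjusted p = 4.11e-19, SE 0.26) uninduced, the second resting on 7 counts and at -9.56 without replicate 3 of uninduced clone 1, which held 6 of them. In clone 2 the ratio of WT to clone was 2019 (691 to 9794) stimulated, and the uninduced level was at least 677-fold lower than in WT. In WT it rose on stimulation by 2.34 (adjusted p = 5.31e-16, SE 0.11). The 5 tested genes within 500 kb had log2 fold changes of -1.05 to 2.71 in stimulated clone 1 and -0.22 to 1.43 in stimulated clone 2. Its partner Il4ra, named here after its values were seen, had 85.9, 82.8 and 83.9 CPM in stimulated WT, 131, 129 and 115 CPM in clone 1 and 253, 253 and 252 CPM in clone 2. Il4ra rose on stimulation by 1.78, 2.17 and 3.51, and only stimulated clone 2 passed as a DEG relative to WT, at 1.58 (adjusted p = 2.17e-13, SE 0.09), against 0.57 (SE 0.09) in clone 1.

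Receptors of the IL-1 family lie together on chromosome 1, in a stretch of 477.6 kb with Il1r2, Il1r1, Il1rl2, Il1rl1, Il18r1 and Il18rap. Il1rl1 (ENSMUSG00000026069, chr1:40429570-40465415, plus strand), the IL-33 receptor ST2, had 20.5, 19.5 and 30.2 CPM in uninduced WT, 3.79, 3.22 and 3.37 CPM in clone 1 and 5.67, 5.54 and 4.87 CPM in clone 2. After stimulation it had 546, 491 and 566 CPM in WT, 27.5, 26.9 and 29.9 CPM in clone 1 and 75.6, 84.7 and 83.9 CPM in clone 2. It rose steeply in each genotype, and WT lay above both clones throughout. Against WT, Il1rl1 had log2 fold changes of -4.25 (adjusted p = 4.87e-16, SE 0.12) and -2.71 (adjusted p = 1.31e-13, SE 0.11) in stimulated clones 1 and 2, and -2.78 and -2.13 uninduced. The rise on stimulation was 4.49 in WT, 3.02 in clone 1 and 3.90 in clone 2, and the rise in clone 1 differed from that in WT by -1.47 (adjusted p = 5.94e-05, SE 0.23), against -0.59 (SE 0.18) in clone 2. Gene counts do not tell the membrane form of ST2 from its soluble form.

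Il1rl2, the receptor chain for IL-36, had 6.23, 6.03 and 5.95 CPM in uninduced WT and 3.13, 2.46 and 3.25 CPM in stimulated WT, against 0.563, 0.375 and 0.104 CPM in uninduced clone 1 and 0.0669, 0.0443 and 0.116 CPM in uninduced clone 2. Stimulated clone 1 had no count, at least 66.4-fold lower than WT, and stimulated clone 2 had 1 count, for a ratio of WT to clone of 146 (25.9 to 5798). The 5 tested genes within 500 kb, members included, ranged from -4.25 to -0.07 in stimulated clone 1 and from -2.71 to 0.50 in stimulated clone 2. Il18rap, the accessory chain of the IL-18 receptor, had 0.116, 0.105 and 0.800 CPM in uninduced WT, 1.23, 0.912 and 1.92 CPM in clone 1 and 2.21, 2.13 and 2.20 CPM in clone 2, then 3.52, 4.92 and 5.05 CPM in WT, 1.81, 1.77 and 1.73 CPM in clone 1 and 5.32, 6.08 and 5.59 CPM in clone 2 after stimulation. It was higher in the uninduced clones, at 1.80 (adjusted p = 0.00102, SE 0.44) and 2.48 (adjusted p = 7.42e-06, SE 0.41), and lower in stimulated clone 1 (-1.35, adjusted p = 0.000601, SE 0.32). Between treatments it differed by 3.53 in WT, 0.38 in clone 1 and 1.37 in clone 2, and the difference in response from WT was -3.15 (adjusted p = 3.12e-05, SE 0.54) and -2.16 (adjusted p = 0.00149, SE 0.51). Of the 25 Il18rap counts of uninduced WT 21 were in replicate 3, without which the uninduced differences were 3.55 and 4.24, the WT response 5.28 and the differences in response -4.90 and -3.91. Over all alternative fits the values nearest 0 were 1.40, 2.08, 3.13, -2.74 and -1.76 in that order, and no call was lost. Il18r1, the ligand-binding chain, was not tested, at no more than 0.245 CPM in any library.

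Il1rap (ENSMUSG00000022514, chr16:26581704-26730117, plus strand), the accessory chain shared by the receptors for IL-1, IL-33 and IL-36, moved opposite to Il1rl1 and Il1rl2. It had 36.9, 37.0 and 34.6 CPM in uninduced WT, 106, 101 and 95.6 CPM in clone 1 and 75.1, 70.9 and 73.3 CPM in clone 2, and 28.8, 26.6 and 26.6 CPM in WT, 166, 163 and 176 CPM in clone 1 and 134, 135 and 147 CPM in clone 2 after stimulation. The 3 genotypes were separate in each treatment, with WT lowest and clone 1 highest. Against WT, Il1rap rose by 2.63 (adjusted p = 5.79e-25, SE 0.06) and 2.34 (adjusted p = 1.16e-23, SE 0.06) stimulated and 1.48 (adjusted p = 8.35e-19, SE 0.06) and 1.02 (adjusted p = 6.09e-15, SE 0.06) uninduced, the last at the fold threshold (0.99 without replicate 3 of uninduced WT). The response exceeded that of WT by 1.14 (adjusted p = 3.23e-12, SE 0.08) in clone 1 and 1.32 (adjusted p = 1.74e-13, SE 0.08) in clone 2. Il1r1, the signalling IL-1 receptor, also named after its values were seen, had 103, 100.4 and 98.7 CPM in stimulated WT, 44.2, 48.4 and 44.8 CPM in clone 1 and 72.9, 76.7 and 69.8 CPM in clone 2, and fell in clone 1 (-1.14, adjusted p = 2.85e-15, SE 0.07) with -0.46 (SE 0.06) in clone 2. Il1rapl1, a related protein of neurons, was present in clone 1, at 4.92, 5.20 and 5.23 CPM uninduced and 4.05, 5.05 and 4.46 CPM stimulated, and at no more than 0.523 CPM in any library of clone 2 or WT. The rise in uninduced clone 2 relative to WT (1.52, SE 0.63) was no DEG without replicate 1 (1.55) or 2 (1.02) of uninduced WT or replicate 1 (1.5) or 2 (1.39) of uninduced clone 2, nor with the replicate number as a block (1.51), and was 2.46 without replicate 3 of uninduced WT. Clone 1 exceeded clone 2 by 3.94 (adjusted p = 2.34e-09, SE 0.40) uninduced and 3.54 (adjusted p = 3.41e-08, SE 0.42) stimulated.

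Of the receptor chains for IL-6, Il6ra was a DEG in both stimulated clones and Il6st in neither. Il6ra, the chain that binds IL-6, had 6.93, 7.13 and 6.10 CPM in uninduced WT, 11.5, 13.8 and 12.2 CPM in clone 1 and 10.0, 7.71 and 10.2 CPM in clone 2, and 4.69, 5.18 and 4.73 CPM in WT, 14.7, 17.8 and 20.7 CPM in clone 1 and 19.4, 17.0 and 16.2 CPM in clone 2 after stimulation. Log2 fold changes relative to WT were 1.87 (adjusted p = 2.06e-12, SE 0.14) and 1.85 (adjusted p = 4.09e-12, SE 0.15) stimulated and 0.90 and 0.48 uninduced. Il6st, which encodes the shared chain gp130, had 636, 562 and 554 CPM in uninduced WT, 522, 491 and 499.7 CPM in clone 1 and 269, 251 and 278 CPM in clone 2, and 635, 634 and 636 CPM in WT, 977, 1054 and 1103 CPM in clone 1 and 612, 672 and 679.9 CPM in clone 2 after stimulation. Stimulated clone 1 lay above WT without overlap, at 0.72 (adjusted p = 1.09e-12, SE 0.05), short of the fold threshold, and stimulated clone 2 overlapped WT, at 0.04 (SE 0.05). Il6st was a DEG relative to WT only in uninduced clone 2 (-1.13, adjusted p = 5.77e-17, SE 0.05), and it rose on stimulation in both clones, at 1.05 (adjusted p = 2.05e-16, SE 0.05) and 1.30 (adjusted p = 1.43e-18, SE 0.05), against 0.12 (SE 0.05) in WT. The difference in response from WT was 0.93 in clone 1 and 1.18 (adjusted p = 2.20e-13, SE 0.08) in clone 2.

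In the IL-17 receptor family, Il17rd, known as Sef and as a restraint on FGF signalling, had 50.9, 53.5 and 47.2 CPM in uninduced WT, 11.1, 10.2 and 11 CPM in clone 1 and 10.3, 9.70 and 13.0 CPM in clone 2, and 11.8, 10.2 and 11.4 CPM in WT, 1.76, 1.11 and 1.32 CPM in clone 1 and 2.41, 1.44 and 1.44 CPM in clone 2 after stimulation. It was below WT in each clone and treatment, with -3.02 (adjusted p = 2.30e-15, SE 0.17) and -2.64 (adjusted p = 8.96e-14, SE 0.18) stimulated and -2.23 and -2.21 uninduced, and its fall on stimulation was -2.18 in WT, -2.97 in clone 1 and -2.61 in clone 2 on the log2 scale. Il17ra, the common IL-17 receptor chain, had 38.9, 34.8 and 37.4 CPM in stimulated WT, 56.6, 59.9 and 54.0 CPM in clone 1 and 68.1, 71.3 and 72.5 CPM in clone 2, after 44.4, 39.8 and 41.7 CPM in WT, 27.5, 30.3 and 29.6 CPM in clone 1 and 28.7, 31.1 and 30.1 CPM in clone 2 uninduced. No comparison with WT passed the fold threshold, from -0.53 uninduced to 0.93 stimulated, but the clone libraries lay below WT uninduced and above WT stimulated, and the response exceeded that of WT by 1.15 (adjusted p = 1.09e-10, SE 0.10) in clone 1 and 1.42 (adjusted p = 1.02e-12, SE 0.10) in clone 2. Il17re, under 2 CPM in every library, had -1.64 (SE 0.57) in uninduced clone 2, a DEG that was lost without replicate 1 (-1.62) or 3 (-1.39) of uninduced clone 2 or replicate 2 of uninduced WT (-1.16). Il15ra rose in the stimulated clones, at 1.70 (adjusted p = 0.000161, SE 0.36) and 2.30 (adjusted p = 2.23e-06, SE 0.35), and, at the fold threshold, uninduced (1.05 and 1.05). The uninduced values were 0.72 and 0.72 without replicate 1 of uninduced WT, 0.92 in clone 1 without its replicate 3 and 0.79 in clone 2 without its replicate 2, and then no DEG.

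**Figure D3:**
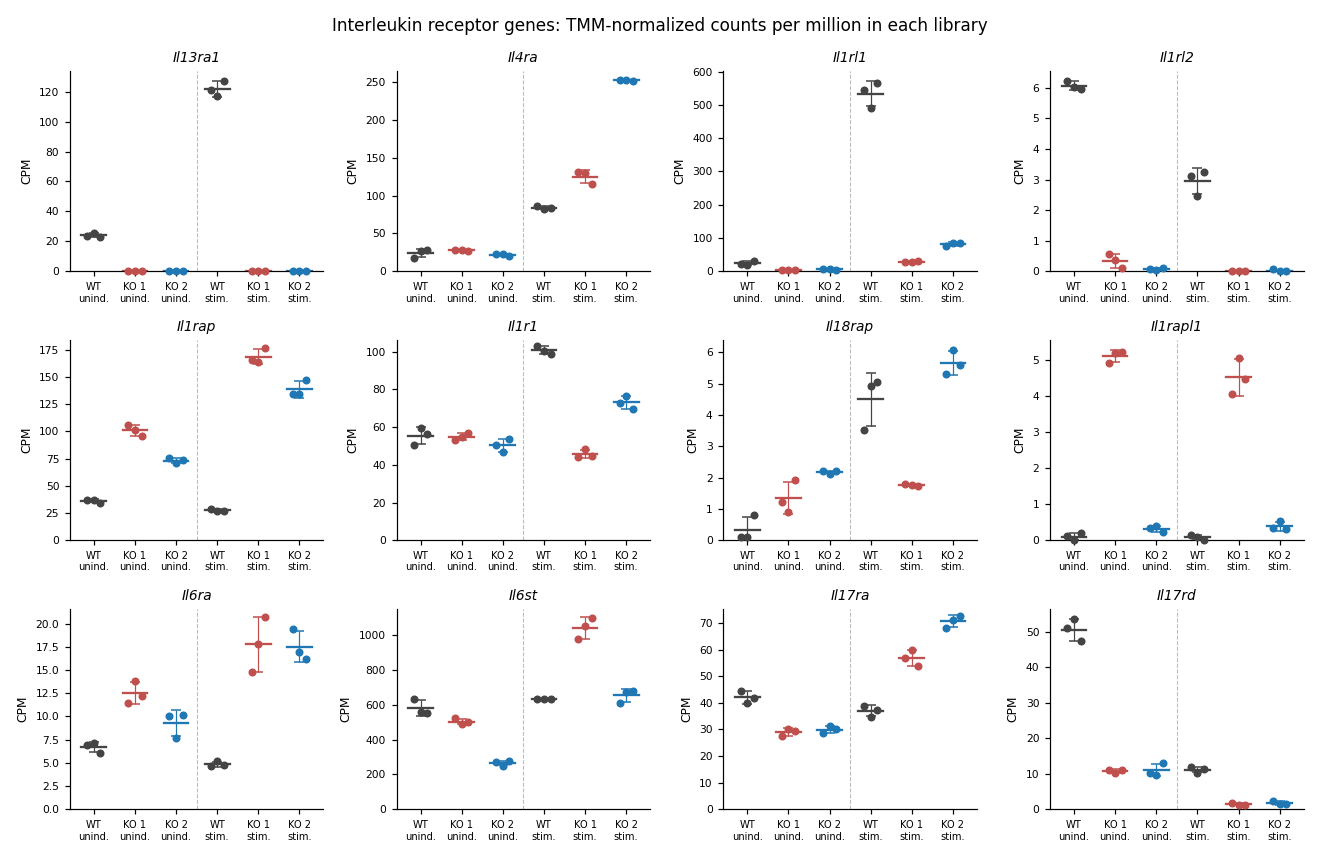
Level of 12 receptor genes in TMM-normalized CPM (linear axis from 0) in each library, uninduced left and stimulated right of the dashed line. Points are libraries, and bars are the mean with the SD of 3 libraries. Il13ra1 reaches 117 to 127 CPM in stimulated WT and at most 0.311 CPM in any clone library, while Il1rap reaches 163 to 176 CPM in stimulated clone 1 and 26.6 to 28.8 CPM in stimulated WT.

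The response to stimulation was mixed within each genotype. In WT, 26 of 52 tested members were DEGs between treatments, against 19.9% of all tested genes, with 8 higher (6.25%) and 18 lower (13.6%). In clone 1 it was 23, against 16.7%, with 7 higher (5.95%) and 16 lower (10.7%). In clone 2 it was 20, against 17.7%, with 11 higher (6.46%) and 9 lower (11.2%). Il6, Il11, Il1rl1 and Il4ra rose in every genotype, although Il11 in clone 1 lost the call as given above. The response differed from that of WT for 15 members in clone 1, against 8.81% of all genes, with 4 higher (5.34%) and 11 lower (3.46%). It differed for 18 members in clone 2, against 7.85%, with 14 higher (4.89%) and 4 lower (2.96%). Cx3cl1, Il6, Il17ra and Il1rap were above the WT response and Il15 and Il18rap below it in both clones, while Ccl7 went below it in clone 1 (-1.06) and above it in clone 2 (1.35). Ccl7 lost the call in clone 1 without replicate 1 of uninduced WT (-0.71), replicate 1 (-0.99) or 2 (-1.07) of stimulated WT or replicate 3 of stimulated clone 1 (-1.01), and in clone 2 without replicate 3 of uninduced WT (0.94). Il15 lost it without any of 7 single libraries in clone 1, among them replicate 2 of stimulated WT (-1.48), and without any of 5 in clone 2, again with replicate 2 of stimulated WT (-1.65). These differences compare each clone with the same WT libraries.

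The clones also differed from each other. Uninduced, 14 members were DEGs, against 8.67% of all genes, with 13 higher in clone 1 (4.89%) and 1 lower (3.78%). Stimulated, 15 were, against 9.98%, with 6 higher (5.50%) and 9 lower (4.48%). The 13 included Ccl2, Ccl5, Ccl7, Cxcl5, Cx3cl1, Il1rn and Il1rapl1, and the 9 that were lower in stimulated clone 1 included Ccl9, Ccl20, Il33, Il1rl1 and Il4ra. Ccl20 was no DEG there without replicate 1 of stimulated clone 2 (-1.34). Summed over all CXC members, the level was 356 to 375 CPM in uninduced WT, 2819 to 2942 CPM in clone 1 and 1424 to 1583 CPM in clone 2, most of it Cxcl12. Ccl25, Il3ra, Il10rb and Il17rc were DEGs in none of the 11 comparisons, with Ccl25 at 6.70, 6.87 and 6.85 CPM in stimulated WT and 7.45, 7.45 and 6.24 and 6.61, 7.65 and 6.43 CPM in the clones, and a log2 fold change of 0.05 (SE 0.17) and 0.02 (SE 0.17). Il11ra1, which binds IL-11, and its near-identical copies listed as Il11ra2 may share reads, and Il11ra1 differed from WT by -0.36 and 0.08 in the stimulated clones.

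**Figure D4:**
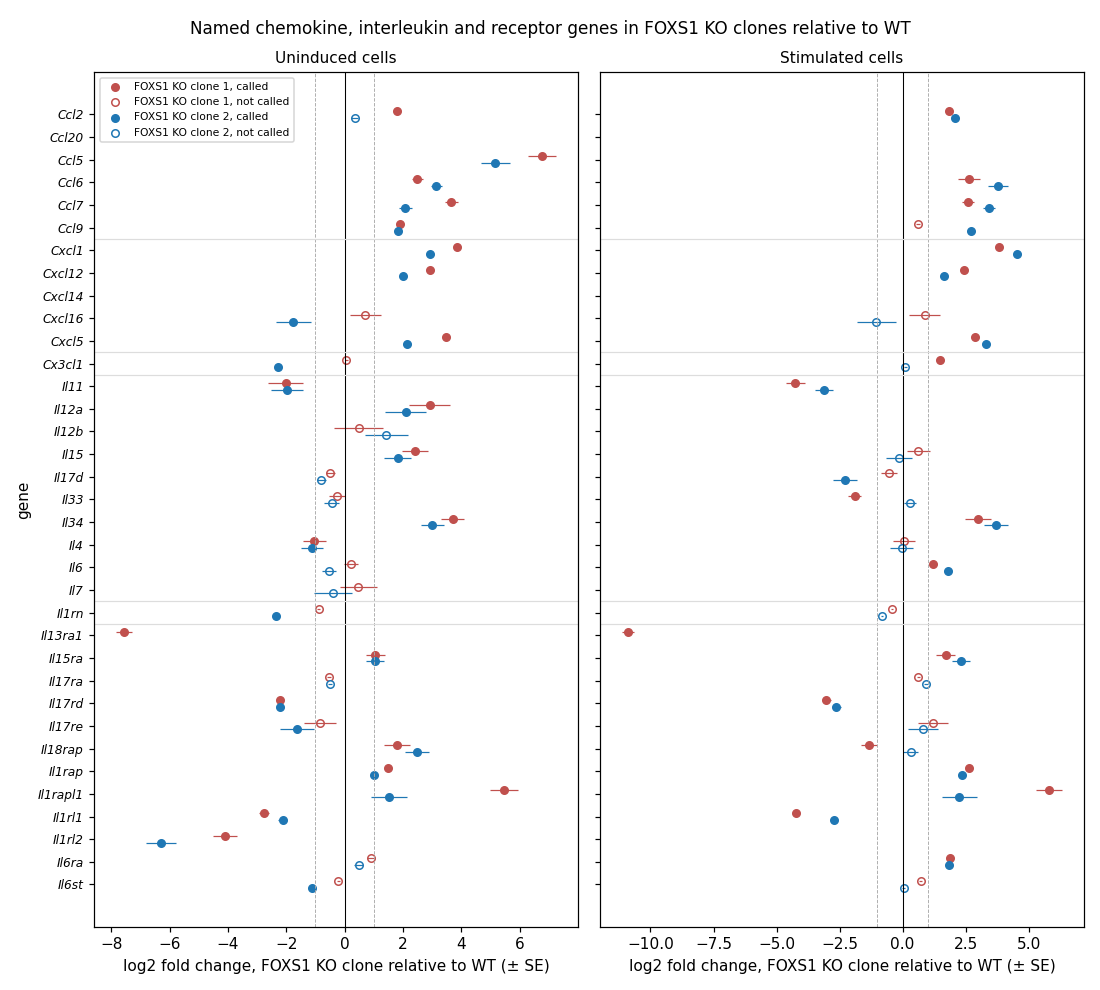
Log2 fold change of the named tested members in FOXS1 KO clones 1 (red) and 2 (blue) relative to WT, in uninduced (left) and stimulated (right) cells. Bars are the SE derived from the F statistic of the test, which can understate the error where counts are few. Filled points are DEGs, dashed lines mark the fold threshold, and a comparison in which a group held 3 counts or fewer has no point. All plotted Ccl and Cxcl genes other than Cxcl16 lie right of 0 in both clones, and Il11, Il17rd and Il1rl1 lie left of it. Il13ra1 has points for clone 1 only, also left of 0.

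Other genes of these pathways were taken from fixed lists. Of 23 chemokine receptor genes 5 were tested, and 1 rose and 1 fell in each stimulated clone. For these small lists, 9.42% of all tested genes were higher and 9.60% lower in stimulated clone 1, and 7.95% and 8.94% in clone 2, and nothing particular to a list is read from its count. Ackr4, a scavenger of CC chemokines, fell in both, at -2.08 (adjusted p = 0.0202, SE 0.76) and -2.39 (adjusted p = 0.0165, SE 0.84), from 0.652 ± 0.402 CPM in stimulated WT. It had 4, 22 and 18 counts in stimulated WT, 7, 3 and 0 in clone 1 and 2, 3 and 1 in clone 2, so clone 1 overlapped WT. Genes of these lists were not followed when single libraries were left out. Ccr2 and Cxcr2 had no count in any library, which allows up to 0.0354 to 0.0603 CPM per group at 3 counts. Cxcr4, a receptor of Cxcl12, had 19 counts in stimulated WT and was not tested. Ackr3, the other receptor of Cxcl12 and named after its values were seen, had 84.3, 97.0 and 85.5 CPM in WT, 18.2, 18 and 19.6 CPM in clone 1 and 30.6, 30.6 and 26.7 CPM in clone 2 uninduced and 134, 139 and 143 CPM in WT, 124, 115 and 112 CPM in clone 1 and 175, 172 and 181 CPM in clone 2 after stimulation. It fell in uninduced clones 1 and 2 (-2.26 and -1.59, adjusted p = 1.06e-21 and 8.21e-19) and differed by -0.24 (SE 0.06) and 0.34 (SE 0.06) in the stimulated clones. None of the chemokine genes that the name rule leaves out, such as Pf4 and Ppbp, was tested. Of 18 other cytokines and subunits 11 were tested, and 3 rose and 1 fell in stimulated clone 1 and the same numbers in clone 2. Lif, an IL-6 family cytokine, had 8.12, 8.72 and 6.99 CPM in stimulated WT, 34.9, 37.1 and 30.3 CPM in clone 1 and 45.7, 46.6 and 45.3 CPM in clone 2, a rise of 2.1 (adjusted p = 5.48e-14, SE 0.14) and 2.53 (adjusted p = 9.18e-16, SE 0.14). Osmr, the oncostatin M receptor, rose by 1.03 (adjusted p = 3.40e-17, SE 0.05) and 1.25 (adjusted p = 4.29e-19, SE 0.05). Clcf1 rose in clone 2, at 1.27 (adjusted p = 7.61e-12, SE 0.10), 0.44 (SE 0.10) in clone 1, and Ctf1 fell in clone 2, at -1.29 (adjusted p = 2.50e-05, SE 0.23), -0.88 (SE 0.22) in clone 1, both being gp130 ligands. Of 11 genes of IL-1 receptor signalling 10 were tested, and 2 fell in each stimulated clone with none higher. These were Irak2, at -1.76 (adjusted p = 9.05e-12, SE 0.14) and -1.43 (adjusted p = 9.60e-10, SE 0.14), and Irak3, a brake on the pathway, at -2.83 (adjusted p = 3.75e-11, SE 0.25) and -2.85 (adjusted p = 1.24e-10, SE 0.26). The median of this list was -0.06 in both stimulated clones, close to that of all genes.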

How the data were processed

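Poly(A) RNA of 18 libraries was sequenced on an Illumina NovaSeq instrument, and the authors mapped reads to GRCm38 with HISAT2 and deposited raw counts per gene, without normalization. For the counting program, annotation release and strand, nothing is given in the sources used here, so reads shared by paralogs or by overlapping and antisense genes cannot be assigned. Overlaps were taken from GENCODE M21, which holds 114 of the 117 members. 13 tested members share exonic bases with another gene. Among them are Il4ra (9.51% of its exonic bases), Il1rap (4.86%) and Il6ra (2.80%), each with a gene on the opposite strand.

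The analysis of the counts used edgeR 4.0.16 under R 4.3.3 (filterByExpr by group, minimum count 10, TMM, glmQLFit robust, glmQLFTest) in a model of 6 group means, with Benjamini-Hochberg adjustment over 14317 genes. Levels per length are CPM divided by the gene length in the table. Where a group had no count, folds were computed against a floor of 3 counts over the group, and with 1 to 3 counts the exact interval of the ratio is given at 95%. Both cover counting error only. Figures were drawn with Python 3.11.15 and matplotlib 3.10.9. Alternatives were DESeq2 1.42.0, its size factors, other filters, fits of only the groups compared, a replicate block, no fold threshold and each library left out.

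The members, gene lists and tests were chosen with earlier results of these data known. Members were named if they were DEGs in the same direction in both clones relative to WT in a treatment, or had responses that differed from WT in the same direction in both clones. Also named were DEGs with the 3 largest changes of a comparison and a group mean of 1 CPM or more, those with the 8 highest levels per length, those without a count in 1 group and with 30 or more in another, and Il6 and Il11. From other lists, up to 4 DEGs of stimulated cells each were named. Il4ra, Il1r1, Ccl17, Ccl25, Il3ra, Il10rb, Il17rc, Il11ra1, Il18, Il18r1, Il2rb, Il20rb and Ackr3 were named after their values were seen.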

Additional observations from a re-analysis of the deposited data

Results flagged for a closer look

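A difference between the response to stimulation of a FOXS1 KO clone and that of WT was tested as an interaction in edgeR's quasi-likelihood fit, and the members past the thresholds are given as log2 differences with their Benjamini-Hochberg adjusted p. In clone 1 the response was above that of WT for Cx3cl1 (1.42, adjusted p = 1.17e-14), Il1rap (1.14, 3.23e-12), Il17ra (1.15, 1.09e-10) and Il6 (1.00, 0.00598). It was below that of WT for Ccl9 (-1.30, adjusted p = 3.08e-11), Il1r1 (-1.12, 5.27e-11), Il18rap (-3.15, 3.12e-05), Il1rl1 (-1.47, 5.94e-05), Il33 (-1.64, 0.00103), Il1rl2 (-4.89, 0.00408), Il13ra1 (-3.31, 0.00851), Il20rb (-2.69, 0.0185), Ccl7 (-1.06, 0.0263), Il15 (-1.80, 0.0375) and Il11 (-2.24, 0.04). The fitted value of Il1rl2 depends on the prior count, since stimulated clone 1 had no count, and that of Il13ra1 rests on 7 and 4 counts in clone 1. Il20rb had 1, 1 and 13 counts in the uninduced WT libraries. Il6 fell below the fold threshold without any of 4 single libraries (0.76 to 0.95), and without replicate 3 of uninduced clone 1, which held most of that group's Il13ra1 counts, the value of Il13ra1 went to -1.32 and was no longer past the threshold.

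In clone 2 the response was above that of WT for Cx3cl1 (2.38, adjusted p = 1.85e-19), Il1rn (1.53, 1.82e-16), Il6st (1.18, 2.2e-13), Il1rap (1.32, 1.74e-13), Il17ra (1.42, 1.02e-12), Il4ra (1.72, 4.77e-10), Ccl2 (1.73, 9.96e-10), Il6 (2.34, 1.26e-07), Cxcl1 (1.60, 4.65e-07), Il6ra (1.37, 3.59e-06), Cxcl5 (1.16, 0.000364), Ccl7 (1.35, 0.00597), Il17re (2.44, 0.0253) and Il15ra (1.25, 0.0444). It was below that of WT for Il2rb (-1.63, adjusted p = 4.83e-05), Il18rap (-2.16, 0.00149), Il17d (-1.48, 0.029) and Il15 (-1.95, 0.0314). Il18rap went to -4.90 in clone 1 and -3.91 in clone 2 without replicate 3 of uninduced WT, and came as near to 0 as -2.74 and -1.76 in other fits. Ccl7 went to 0.94 in clone 2 without replicate 3 of uninduced WT. The interactions of Il1r1, Il20rb, Il2rb and Il4ra were not followed when single libraries were left out. The interactions of Ccl7, Il11 and Il15 in clone 1 and of Il15, Il15ra, Il17d and Il17re in clone 2 were lost when single libraries were left out, at values of -0.71 to -1.07, -1.86 to -2.19, -1.48 to -1.87, -1.65 to -1.96, 0.76 to 1.31, -1.36 to -1.61 and 1.96 to 2.43 in that order.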

How the results depend on the processing

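The number of members called stayed within 1.5 times of that reported in each of the 11 comparisons under DESeq2's Wald test, DESeq2's size factors, no filter beyond 1 count, 1 CPM in 3 libraries, fits of only the groups compared and the replicate block. Without a fold threshold it was 40 for the response of WT, 37 for clone 1 and 33 for clone 2, 23 for the difference in response between clone 1 and WT, and 28 stimulated and 27 uninduced for clone 1 against clone 2. When single libraries were left out, the counts relative to WT were 26 to 28 and 25 to 26 in stimulated clones 1 and 2 and 21 to 23 and 25 to 28 in the uninduced clones. The responses gave 21 to 25, 21 to 26 and 19 to 22 for WT, clone 1 and clone 2, the differences in response 13 to 16 and 14 to 19, and the clones against each other 11 to 15 stimulated and 11 to 14 uninduced. No named value changed sign while called, and Cxcl14 had no adjusted p in DESeq2 for the difference in response of clone 1. Replicate numbers do not pair the libraries, since same-numbered libraries deviated together with r of only -0.04 to 0.06, and with the replicate block 27 members were called in stimulated clone 1 as without it. The stimulated differences between clone 1 and clone 2 in Il11 (-1.14) and Cxcl16 (1.92) lost the call without any of 4 single libraries each, at -0.66 to -1.19 and 1.39 to 1.91, and Cxcl16 was 3.26 without replicate 3 of stimulated clone 2. The design has 1 WT line and 1 line per clone, and members with few counts are limited by depth.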
